A study of Homo sapiens with 12 samples.

Results

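The small nucleolar RNAs (snoRNAs) and small Cajal body RNAs (scaRNAs) described here are the genes whose symbol begins with SNORA, SNORD or SCARNA and whose mean normalised read count was 10 or more in both comparisons of MOLM13 cells. There were 85 such genes among the 24939 genes listed in both MOLM13 tables. They comprised 42 H/ACA snoRNAs (SNORA), 34 C/D snoRNAs (SNORD) and 9 Cajal body RNAs (SCARNA). They were chosen by these mean counts, which come from the same comparisons as the fold changes, so the counts of called genes below are a description of these genes and not a test. RNA sequencing had been used to ask how gene expression in human acute myeloid leukemia cells responds to loss of IGF2BP3, an RNA-binding protein that recognises messenger RNAs. The study had 12 libraries, 2 in each of 6 groups, from 2 lines. MOLM13, a leukemia line with monocytic features, carried a lentiviral hairpin against IGF2BP3, either shBP3-1 (hairpin 1) or shBP3-2 (hairpin 2), and their controls carried the lentiviral hairpin shNS. U937 cells, a second myeloid line in which IGF2BP3 bore an mAID degron tag, were kept in the degradation inducer 5-Ph-IAA for 6 h or 24 h, against the same tagged cells without it (NT). Whether the lines were clones or pools is not given in the sources used here.

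snoRNAs are short stable RNAs of the nucleolus, and most human ones are cut from the introns of host genes. C/D snoRNAs bind fibrillarin and guide 2'-O-methylation of ribosomal RNA, whereas H/ACA snoRNAs bind dyskerin and guide conversion of uridine to pseudouridine. scaRNAs carry the same kinds of boxes, collect in Cajal bodies and guide modification of the small nuclear RNAs of the spliceosome. A few abundant snoRNAs, such as U3 (SNORD3A and its copies), U14 (SNORD14 genes) and U17 (SNORA73 genes), act in cutting the ribosomal RNA precursor.

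Only the authors' comparison tables were used, which hold no value per library, so every level below is a group mean worked out from the mean count and fold change and carries no SD. The sums of mean counts were 22544563 and 22028570 reads for hairpin 1 and hairpin 2, and 11826946 and 12360751 reads for 6 h and 24 h. The shNS level worked out from the hairpin 2 table was 97.8% of that from the hairpin 1 table for genes as a whole and 97.7% to 98.0% for the 85 genes. In the authors' deposited tables, IGF2BP3 itself had a log2 fold change of -1.32 with hairpin 1 (adjusted p = 2.28e-28) and -1.03 with hairpin 2 (adjusted p = 1.57e-26). All 8 myeloid leukemia markers examined were listed in both MOLM13 tables, the lowest (MPO) at a mean of 240 reads, while the T cell genes CD3E and CD2 were not listed, the epithelial gene EPCAM had at most 0.742 reads and the keratin genes KRT18 and KRT8 had 87.6 to 841 reads. The labels call the MOLM13 material total RNA and the U937 material mRNA, whereas their protocol describes capture of mRNA on beads. The 85 genes together held 15881 and 19826 normalised reads, or 0.0704% and 0.0900%, in the hairpin 1 and hairpin 2 tables, against 225 and 203 reads, or 0.00190% and 0.00164%, in the 6 h and 24 h tables of U937 cells.

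The sequences below are those of 9 genes on which the results turn, as the transcripts of GENCODE release 29 (hg38) give them, 5' to 3'. SNORD11 was called with both hairpins. SNORD69 and SNORA3B had the lowest called values with hairpin 2 in their classes. SNORD101, SNORD100 and SNORA33 lie in introns of one host, RPS12. SNORD14E, SNORA23 and SCARNA5 differed between the hairpins. Capitals mark the C box (TGATGA) and the D box (CTGA) of SNORD11, SNORD69, SNORD14E, SNORD101, SNORD100 and SCARNA5, and the ACA box of SNORA33, SNORA3B and SNORA23.
SNORD11: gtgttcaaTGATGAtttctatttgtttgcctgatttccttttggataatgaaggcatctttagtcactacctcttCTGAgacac
SNORD69: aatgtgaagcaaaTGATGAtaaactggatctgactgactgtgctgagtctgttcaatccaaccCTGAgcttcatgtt
SNORD14E: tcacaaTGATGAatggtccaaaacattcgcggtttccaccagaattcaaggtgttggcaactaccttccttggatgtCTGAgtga
SNORD101: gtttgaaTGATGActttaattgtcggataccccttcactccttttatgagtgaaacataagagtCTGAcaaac
SNORD100: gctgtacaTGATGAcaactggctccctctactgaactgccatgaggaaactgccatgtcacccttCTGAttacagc
SNORA33: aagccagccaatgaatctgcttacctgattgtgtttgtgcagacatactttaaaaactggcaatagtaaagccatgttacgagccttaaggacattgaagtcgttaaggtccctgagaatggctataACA
SNORA3B: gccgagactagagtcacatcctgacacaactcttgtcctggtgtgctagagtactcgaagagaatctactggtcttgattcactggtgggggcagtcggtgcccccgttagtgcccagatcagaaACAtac
SNORA23: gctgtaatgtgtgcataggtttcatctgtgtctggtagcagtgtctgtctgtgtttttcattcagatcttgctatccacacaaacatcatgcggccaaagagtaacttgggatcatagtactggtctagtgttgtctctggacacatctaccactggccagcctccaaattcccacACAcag
SCARNA5: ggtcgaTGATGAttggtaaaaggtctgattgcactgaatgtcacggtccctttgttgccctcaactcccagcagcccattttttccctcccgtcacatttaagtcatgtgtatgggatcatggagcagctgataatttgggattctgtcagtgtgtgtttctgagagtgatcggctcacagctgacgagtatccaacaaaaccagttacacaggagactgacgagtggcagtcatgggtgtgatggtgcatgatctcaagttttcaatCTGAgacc

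SNORD11 lies at chr2:202293051-202293134 in an intron of NOP58, SNORD69 at chr3:52692736-52692812 in GNL3 and SNORD14E at chr11:123058077-123058161, minus strand, in HSPA8. SNORD101 (chr6:132815307-132815379), SNORD100 (chr6:132816802-132816877) and SNORA33 (chr6:132817219-132817348) lie one after another in RPS12. SNORA3B is at chr11:8685439-8685569 in RPL27A, SNORA23 at chr11:9428773-9428954 in IPO7 and SCARNA5 at chr2:233275727-233276002 in ATG16L1; all but SNORD14E are on the plus strand. A TGATGA within 20 bases of the 5' end together with a CTGA within 15 bases of the 3' end, searched on the transcript strand, was present in 19 of the 34 C/D genes described here and in 185 of 280 C/D genes of the annotation. It was present in 0 of 148 annotated H/ACA genes. An ACA within 8 bases of the 3' end was found in 36 of 41 H/ACA genes described here, in 132 of 148 annotated H/ACA genes and in 14 of 280 C/D genes. Of the 34 C/D genes described here 7 held it, or 20.6% beside 5.00% of those annotated; SNORD11, SNORD100 and SNORD101 are among them, and it is not capitalised in their sequences. Of the 9 Cajal body RNAs, 3 had both C and D motifs and 6 had the ACA motif. A missing match says only that these letters are not in that window.

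With hairpin 1, few snoRNAs passed the authors' test, although most had negative values. In the authors' deposited table, 4 of the 85 genes fell and 0 rose at an adjusted p under 0.05 with DESeq2, and 10 had an unadjusted p under 0.05. Among all 16282 tested genes, 16.0% were called lower and 17.7% higher, and among tested genes with a mean count of 10 to 100 the shares were 3.72% and 6.67%. The shares at an unadjusted p under 0.05 were not worked out and can only be equal or larger. The 10 genes are therefore not an excess over other genes that these data show. The median mean count of the 85 genes was 28.1 reads, and their implied standard error (SE), recovered from the deposited p, had a median of 0.59 on the log2 scale. The median log2 fold change was -0.39, beside -0.01 over all tested genes and -0.04 over those with a mean count of 10 to 100. Of the 85 values 70 were below 0, beside 50.7% of all tested genes and 51.8% of those with a mean count of 10 to 100. The classes had medians of -0.32 (H/ACA), -0.47 (C/D) and -0.40 (Cajal body). In bulk RNA of this kind, fewer cells that contain a transcript and less of it per cell cannot be told apart.

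The called genes with hairpin 1 were 3 H/ACA snoRNAs and 1 C/D snoRNA. SNORA23, an H/ACA snoRNA, had a mean level of 186 normalised reads with hairpin 1, against 358 with shNS. Its log2 fold change in the authors' deposited table was -0.95 (SE 0.24, adjusted p = 0.00054), the smallest adjusted p among the 85 genes with this hairpin. SNORA74D, one of the U19 family, averaged 134 reads with hairpin 1 and 226 with shNS, and the authors' deposited table gives -0.75 (SE 0.27, adjusted p = 0.017). SNORA79B averaged 87.5 reads with hairpin 1 and 164 with shNS, for a deposited log2 fold change of -0.91 in the authors' table (SE 0.34, adjusted p = 0.0281). SNORD11, a C/D snoRNA, averaged 17.1 reads with hairpin 1 and 48.9 with shNS. At -1.52 (SE 0.54, adjusted p = 0.0172), its value was the lowest of the 85 in the authors' deposited table for this hairpin. None of the 9 Cajal body RNAs was called with hairpin 1: the authors' deposited values lay between -0.81 (SCARNA1) and 0.28 (SCARNA18B).

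With hairpin 2, calls went in both directions, lower mostly among C/D snoRNAs and higher for SCARNA5 and SCARNA6 among others. The authors' deposited table calls 11 of the 85 genes lower and 4 higher, and 21 had an unadjusted p under 0.05. Over all 20768 tested genes 22.1% were called lower and 19.4% higher, and over those with a mean count of 10 to 100 the shares were 7.85% and 14.5%. Shares at an unadjusted p under 0.05 were again not worked out and can only be equal or larger. C/D snoRNAs had a median log2 fold change of -0.97, H/ACA snoRNAs -0.12 and Cajal body RNAs -0.16, beside 0.02 over all tested genes and 0.15 over those with a mean count of 10 to 100. Negative values were found for 28 of 34 C/D, 26 of 42 H/ACA and 5 of 9 Cajal body genes. They made up 49.0% of all tested genes and 43.1% of those with a mean count of 10 to 100. The genes called lower were 8 C/D and 3 H/ACA snoRNAs, and those called higher were 2 Cajal body RNAs, 1 H/ACA and 1 C/D snoRNA.

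**Figure D1:**
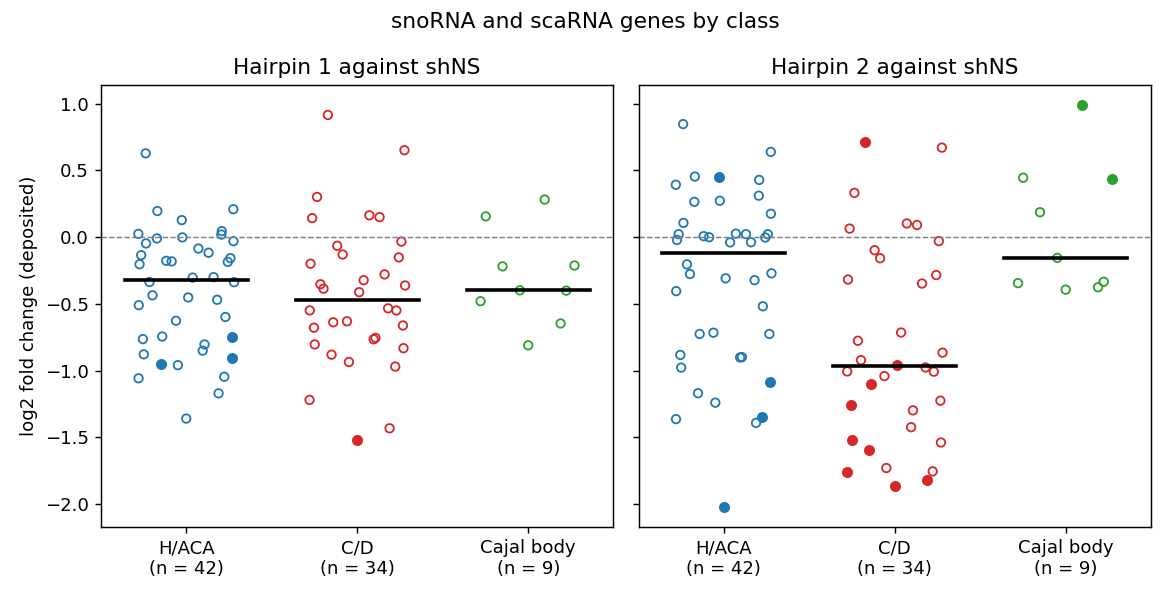
Deposited log2 fold change (vertical axis) of each snoRNA or scaRNA gene by class, for hairpin 1 (left) and hairpin 2 (right) against shNS. Filled points have an adjusted p under 0.05, black bars are class medians, and horizontal scatter is for visibility only. The C/D median is -0.97 with hairpin 2 and -0.47 with hairpin 1, and the filled points above 0 all belong to hairpin 2.

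The C/D median with hairpin 2 was lower among genes with few reads. The 24 C/D snoRNAs with an average mean count under 50 had a median of -1.02, and the 10 with 50 or more had -0.25. The same split gave -0.42 (28 genes) and 0.01 (14 genes) for H/ACA snoRNAs, and -0.34 (5 genes) and 0.31 (4 genes) for Cajal body RNAs. With hairpin 1 the split moved the medians less: -0.54 and -0.40 for C/D, -0.32 and -0.26 for H/ACA, and -0.40 and -0.35 for Cajal body RNAs. The mean counts include the hairpin libraries, so a gene that falls with a hairpin also moves towards the group with few reads. The split and the fold changes are therefore not independent. Whether depth itself has a part in the difference was not tested.

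Among C/D snoRNAs, the lowest called values with hairpin 2 came from 4 genes with few reads. SNORD69 averaged 8.52 normalised reads with hairpin 2 and 31.1 with shNS, and its log2 fold change in the authors' deposited table was -1.87 (SE 0.70, adjusted p = 0.0195). SNORD11 averaged 13.5 reads with hairpin 2 and 47.9 with shNS. The authors' deposited table gives -1.82 for it (SE 0.55, adjusted p = 0.00294), which makes it the one gene of the 85 called with both hairpins. The share of all tested genes called with both hairpins was not worked out. How far the hairpins overlap for snoRNAs beside other genes is therefore not known. Both comparisons share the 2 shNS libraries, so the SNORD11 values with the 2 hairpins are not independent. SNORD19C averaged 8.02 reads with hairpin 2 and 27.2 with shNS, and the authors' deposited table gives -1.76 (SE 0.74, adjusted p = 0.0436). SNORD99, from the non-coding host SNHG12, averaged 12.5 reads with hairpin 2 and 37.9 with shNS, with -1.60 in the authors' deposited table (SE 0.64, adjusted p = 0.0314).

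The other C/D snoRNAs called lower were SNORD88A, SNORD101, SNORD100 and SNORD94. SNORD101 had 44.6 reads with hairpin 2, against 107 with shNS, and a log2 fold change in the authors' deposited table of -1.26 (SE 0.35, adjusted p = 0.00106). SNORD94, which guides methylation of the U6 small nuclear RNA, had 40.6 reads with hairpin 2 and 79.0 with shNS; the authors' deposited table gives -0.96 (SE 0.39, adjusted p = 0.0324). For SNORD100 and SNORD88A the deposited values in the authors' table were -1.10 and -1.52. The 1 C/D gene that rose was SNORD3B-1, a U3 copy, with 170 reads with hairpin 2 and 104 with shNS (0.71 in the authors' deposited table, SE 0.27, adjusted p = 0.0243). Its sequence is 98.9% identical to that of SNORD3A, so reads assigned to it are uncertain. SNORD3A had 1452 reads with hairpin 2 and 1482 with shNS, and the authors' deposited table gives -0.03 (SE 0.46).

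Of the H/ACA snoRNAs, 3 fell and 1 rose with hairpin 2. SNORA3B had 12.5 reads with hairpin 2, against 50.7 with shNS, and its -2.02 was the lowest of the 85 values in the authors' deposited table (SE 0.58, adjusted p = 0.00174). SNORA65 had 19.0 reads with hairpin 2 and 48.3 with shNS, with -1.34 in the authors' deposited table (SE 0.52, adjusted p = 0.0257). SNORA33 had 52.1 reads with hairpin 2 and 111 with shNS, with -1.08 in the authors' deposited table (SE 0.33, adjusted p = 0.00312). These 3 lie in ribosomal protein genes (RPL27A, RPL12 and RPS12). SNORA12, which lies in CWF19L1, was higher at 548 reads with hairpin 2, against 401 with shNS (0.45 in the authors' deposited table, SE 0.19, adjusted p = 0.0442). Centred on the median gene, SNORA12 was no longer called (adjusted p = 0.0564).

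Among the 9 Cajal body RNAs, the neighbours SCARNA5 and SCARNA6 rose with hairpin 2. SCARNA5 had 7190 reads with hairpin 2 and 3620 with shNS, a fold of 1.99. Its log2 fold change of 0.99 in the authors' deposited table had the smallest error of all 85 genes (SE 0.08, adjusted p = 3.6e-35). SCARNA6 had 775 reads with hairpin 2 and 574 with shNS, with 0.43 in the authors' deposited table (SE 0.15, adjusted p = 0.00958). The other 7 were not called: SCARNA7, a guide for the U1 small nuclear RNA, had 761 reads with hairpin 2 and 668 with shNS, and SCARNA21 had 486 and 541. SCARNA1, SCARNA3, SCARNA18, SCARNA18B and SCARNA20 had 9.02 to 34.6 reads with hairpin 2, where the authors' deposited values ran from -0.39 to 0.45.

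**Figure D2:**
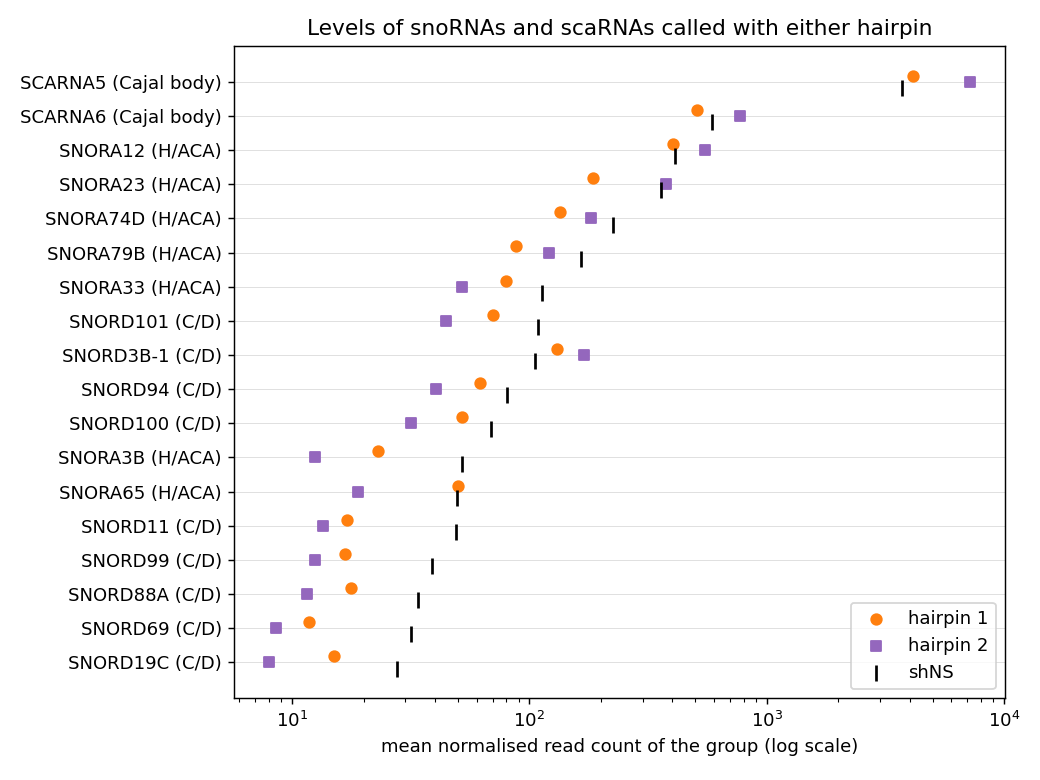
Group mean levels (horizontal log axis, normalised reads) of the 18 snoRNAs and scaRNAs called with either hairpin, for hairpin 1 (circles), hairpin 2 (squares) and shNS (bars, from the hairpin 1 table). SCARNA5 stands at 4122 reads with hairpin 1, 7190 with hairpin 2 and 3701 with shNS. No error is drawn because no value per library was used.

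A single gene made up 34.4% to 65.5% of the summed reads of each class with shNS. H/ACA genes summed to 5210 reads with hairpin 1, against 8170 with shNS, and to 8650 with hairpin 2, against 7985. SNORA73B, the U17 snoRNA, made up 62.4% of the H/ACA sum with shNS, and without it the sums were 2290 with hairpin 1 and 3074 with shNS, and 3026 with hairpin 2 and 3005 with shNS. C/D genes summed to 2750 reads with hairpin 1, against 4413, and to 3858 with hairpin 2, against 4314; SNORD3A made up 34.4% of the shNS sum. Without SNORD3A the C/D sums were 1976 with hairpin 1 and 2897 with shNS, and 2407 with hairpin 2 and 2832 with shNS. Cajal body RNAs summed to 5569 reads with hairpin 1, against 5650, and to 9318 with hairpin 2, against 5526, with SCARNA5 at 65.5% of the shNS sum. Without SCARNA5 the Cajal body sums were 1447 with hairpin 1 and 1950 with shNS, and 2128 with hairpin 2 and 1906 with shNS. None of these sums carries an error. What was left still held abundant genes that were not called and had 2.74 to 5.86 times the SE of genes of like count. They were SNORA53 and SNORA74A (H/ACA), SNORD17 and SNORD15B (C/D), and SCARNA7 and SCARNA21 (Cajal body). A lower or higher sum therefore does not show a shift spread over the class. Per length, SNORA73B stood highest at 2498 reads per 100 bases with shNS, then SCARNA5 at 1341 and SNORD17 at 583. The class medians per 100 bases with shNS were 23.3 (40 H/ACA genes), 40.4 (29 C/D genes) and 32.1 (9 Cajal body RNAs). The genes with another annotation version, SNORD3A among them, were left out of the values per length.

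The hairpins were then compared with each other over the difference of their log2 fold changes. At the 0.05 threshold, 3 of the 85 genes were higher with hairpin 2 and 1 was lower, beside 9.09% and 18.2% of all 16267 genes compared. SCARNA5 differed by 0.83 (95% interval 0.59 to 1.08, adjusted p = 3.36e-10), with 7190 reads with hairpin 2 and 4122 with hairpin 1. SCARNA6 differed by 0.65 (0.21 to 1.08, adjusted p = 0.0165), at 775 reads with hairpin 2 and 507 with hairpin 1. SNORA23 differed by 1.05 (0.42 to 1.69, adjusted p = 0.00567): its 377 reads with hairpin 2 were near the 350 of shNS, whereas it had 186 with hairpin 1. SNORD14E, a U14 copy in HSPA8, had 12.5 reads with hairpin 2 and 64.8 with hairpin 1, and its shNS level of 33.6 to 34.3 lay between them. It differed by -2.34 (-3.88 to -0.80, adjusted p = 0.0136), although neither hairpin was called alone in the authors' deposited tables (0.92 with hairpin 1, -1.42 with hairpin 2). For SNORD11 the difference was -0.31 (-1.81 to 1.20), an interval too wide to show that the hairpins acted alike. With hairpin 2 and hairpin 1, the class medians were -0.97 and -0.47 for C/D, -0.12 and -0.32 for H/ACA, and -0.16 and -0.40 for Cajal body RNAs.

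Several of the most abundant snoRNAs had errors far above those of other genes. Of the 15 genes with an average mean count of 100 or more, 8 had an implied SE over 2 times the median SE of genes with a like mean count in both tables. Over all tested genes with a mean count of 100 or more, 67 of 10883 (0.616%) did so with hairpin 1 and 79 of 10946 (0.722%) with hairpin 2. The 8 genes were SNORA73B, SNORA74A, SNORA53, SNORD3A, SNORD17, SNORD15B, SCARNA7 and SCARNA21. SNORA73B had an SE of 0.58 with hairpin 1 and 0.57 with hairpin 2, or 6.10 and 8.12 times that of genes of like count. Its level was 2920 reads with hairpin 1, against 5096 with shNS, and 5624 with hairpin 2, against 4980. For SNORD3A the level was 774 with hairpin 1, against 1516, and the SE of 0.47 was 3.90 times that of like genes. SNORD17 had 777 reads with hairpin 1, against 1382, and an SE of 0.53, or 4.30 times. None of the 8 was called with either hairpin. SCARNA5, SCARNA6, SNORA12 and SNORA23, which also had mean counts over 100, had 1.00 to 1.28 times the SE of like genes. In the authors' deposited tables RNU4-2, a small nuclear RNA of the spliceosome, at a mean of 347 and 418 reads, had log2 fold changes of -0.75 with hairpin 1 and -0.05 with hairpin 2, with SEs of 0.75 in both. Which libraries spread cannot be read from tables without values per library, and because the shNS libraries are shared, the 2 tables are not separate evidence.

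**Figure D3:**
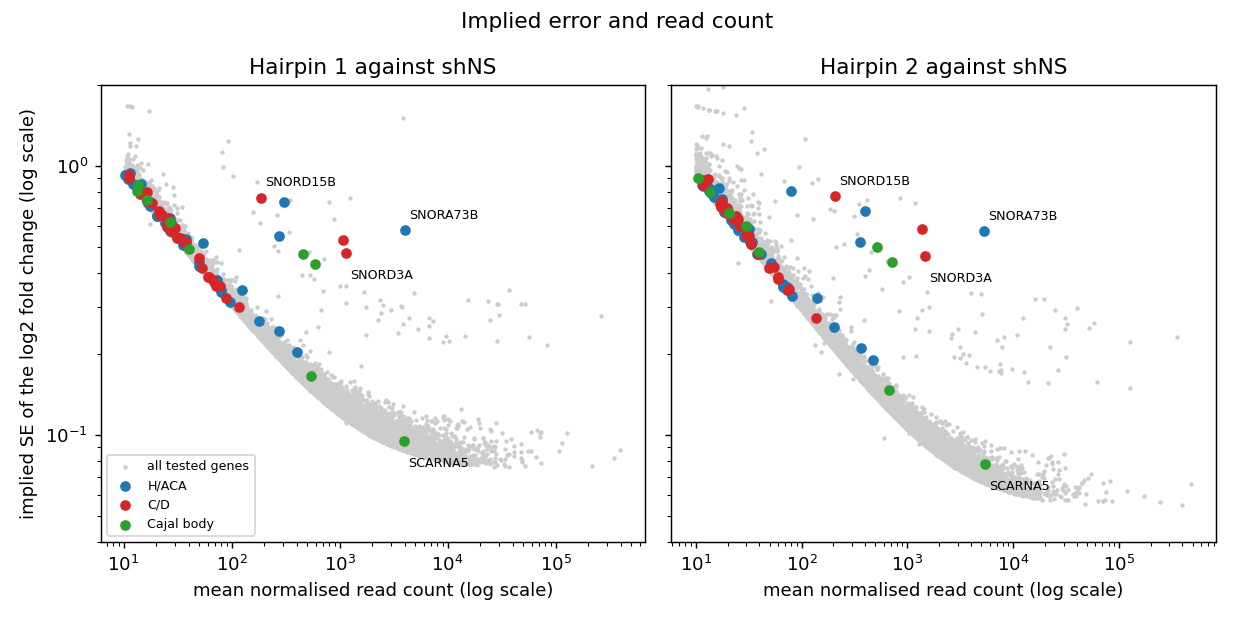
Implied SE of the log2 fold change (vertical log axis) against mean normalised read count (horizontal log axis) for all tested genes with a mean of 10 or more (grey) and for H/ACA, C/D and Cajal body genes, with hairpin 1 (left) and hairpin 2 (right). SNORA73B lies at 6.10 and 8.12 times the SE of genes of like count, and SCARNA5 at 1.00 and 1.12 times.

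Most of these genes lie within another gene on the same strand: 78 of 85, in 68 different hosts, and the authors' deposited tables hold fold changes of the host for 76. Without values per intron, reads of the snoRNA and of unspliced host RNA cannot be told apart. Across the 76 genes the log2 fold changes of snoRNA and host had a Pearson r of 0.33 and a Spearman rho of 0.33 with hairpin 1, and 0.38 and 0.38 with hairpin 2. These are descriptions over genes that share libraries and in part hosts. The median of the host values was -0.27 with hairpin 1 and -0.60 with hairpin 2, each host being counted once for each of its genes. C/D snoRNAs were below their host in 14 of 28 cases with hairpin 1 and in 21 of 28 with hairpin 2. H/ACA snoRNAs were below it in 28 of 39 cases with hairpin 1 and in 14 of 39 with hairpin 2. Cajal body RNAs were below it in 6 of 9 cases with hairpin 1 and in 3 of 9 with hairpin 2. The 11 genes in the 9 ribosomal protein hosts were grouped after their values were seen. With hairpin 2 these genes had a median of -1.01, and 10 of 11 were below their host. The host values had a median of -0.25, with RPS12 counted once for each of its snoRNAs. With hairpin 1 the genes had a median of -0.51 beside -0.63 for the host values, and 4 of 11 were below their host.

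In 8 hosts there were 2 or more of the genes, 18 in all. RPS12 encodes a ribosomal protein of the small subunit and had log2 fold changes of -0.49 with hairpin 1 and -0.15 with hairpin 2 in the authors' deposited tables. Its 3 snoRNAs had -0.64 (SNORD101), -0.41 (SNORD100) and -0.51 (SNORA33) with hairpin 1, none of them called, and -1.26, -1.10 and -1.08 with hairpin 2 in the authors' deposited tables, all called. In ATG16L1, an autophagy gene, the host had 0.02 with hairpin 1 and -0.09 with hairpin 2 in the authors' deposited tables, and neither was called. Its SCARNA5 and SCARNA6 had 0.16 and -0.21 with hairpin 1 and 0.99 and 0.43 with hairpin 2 in the authors' deposited tables. In NOP58, which encodes a core protein of C/D particles, the host fell with both hairpins, to log2 fold changes of -0.44 with hairpin 1 and -1.36 with hairpin 2 in the authors' deposited tables. SNORD70, the second NOP58 snoRNA beside SNORD11, had -0.75 and -1.75 and was not called in either of the authors' deposited tables. GNL3, which encodes the nucleolar protein nucleostemin, fell (log2 fold change -0.40 with hairpin 1 and -1.22 with hairpin 2) in the authors' deposited tables, and its SNORD69, SNORD19C and SNORD19 had -1.87, -1.76 and -1.54 with hairpin 2. The last of these was not called (adjusted p = 0.0565). SNHG4, a non-coding host, fell with hairpin 2 (-1.52 in the authors' deposited table), beside -0.28 for SNORA74D and -0.00 for SNORA74A, neither of them called. With hairpin 1 the authors' deposited table gives -0.72 for SNHG4, -0.75 for SNORA74D, which was called, and -1.06 for SNORA74A, which was not. SNORA74A had wide errors (SE 0.55 with hairpin 1 and 0.52 with hairpin 2). Both snoRNAs also lie within MATR3 on the same strand. The pairs in WDR43, KANSL2 and TBRG4 held no called snoRNA.

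**Figure D4:**
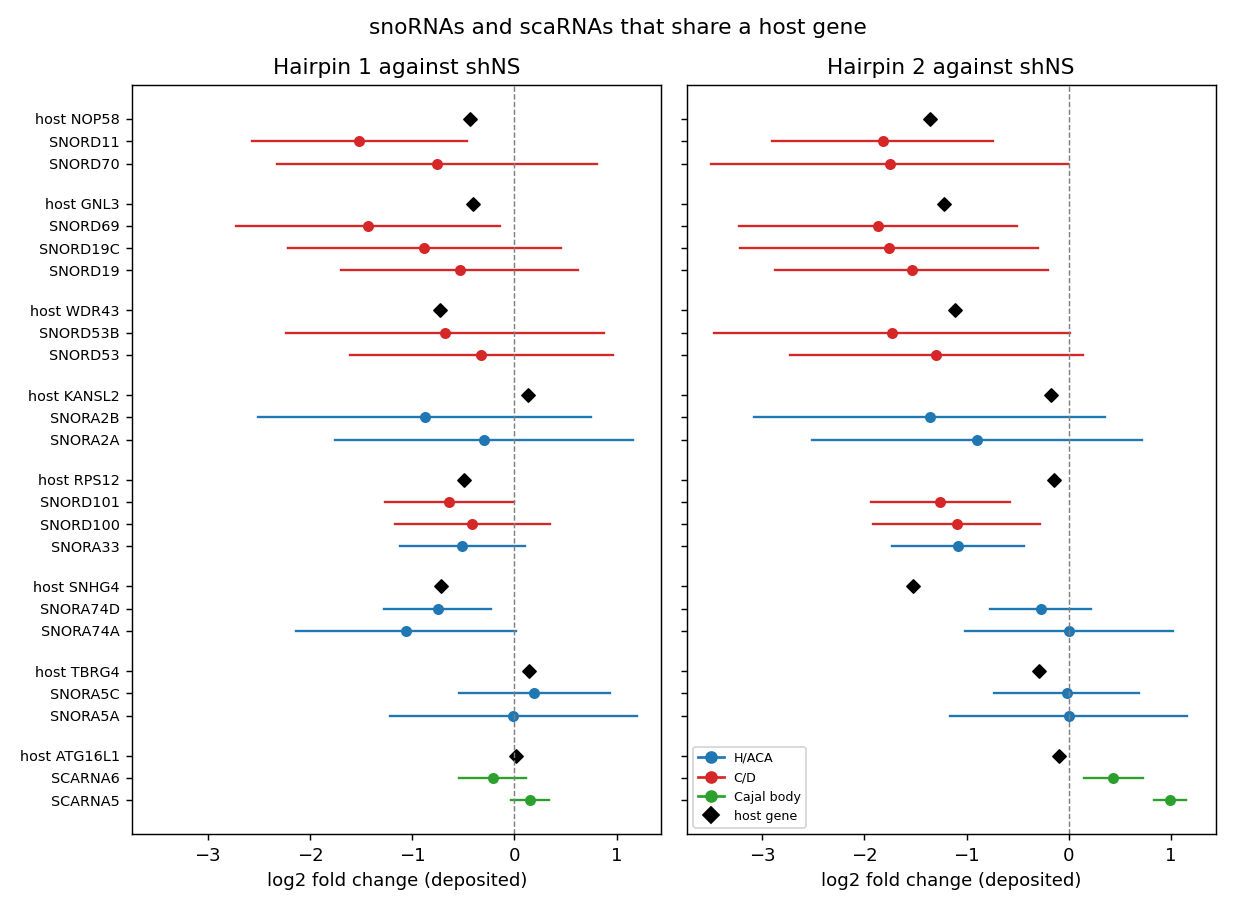
Deposited log2 fold change (horizontal axis) of the 18 snoRNAs and scaRNAs that share a host, with 95% intervals from the implied SE, and of the 8 host genes (diamonds), with hairpin 1 (left) and hairpin 2 (right) against shNS. The 3 RPS12 snoRNAs lie at -1.26, -1.10 and -1.08 with hairpin 2 and their host at -0.15, whereas SCARNA5 lies at 0.99 and its host ATG16L1 at -0.09.

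Among genes for the proteins that bind and build these particles, some were called lower with hairpin 1 and more with hairpin 2, and others were not called. The 4 core proteins of C/D particles all fell with both hairpins, with median log2 fold changes of -0.46 with hairpin 1 and -1.25 with hairpin 2. FBL, the methyltransferase fibrillarin, fell (log2 fold change -0.97 with hairpin 1, SE 0.09, and -1.55 with hairpin 2, SE 0.08) in the authors' deposited tables. Of the 4 core proteins of H/ACA particles, 2 fell with hairpin 1 and 4 with hairpin 2 (medians -0.30 and -1.12). DKC1, the pseudouridine synthase dyskerin, fell (log2 fold change -0.34 with hairpin 1, SE 0.08, and -1.22 with hairpin 2, SE 0.07) in the authors' deposited tables. Of the H/ACA assembly factors NAF1 and SHQ1, 0 of 2 were called by DESeq2 with hairpin 1, 1 of them (NAF1, -0.36 in the authors' deposited table, adjusted p = 0.0694) at an unadjusted p under 0.05, and 2 of 2 fell with hairpin 2. Of 10 factors of C/D assembly and the R2TP chaperone complex, 5 fell with hairpin 1 and 8 with hairpin 2; RPAP3 and ZNHIT3 were not called with either. RUVBL1, a helicase of that complex, fell (log2 fold change -0.63 with hairpin 1 and -1.55 with hairpin 2) in the authors' deposited tables.

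Among 15 genes of snoRNA processing and trafficking, 5 fell and 1 rose with hairpin 1, and 12 fell and 1 rose with hairpin 2. TGS1, which trimethylates the cap of some snoRNAs, fell (log2 fold change -0.52 with hairpin 1 and -1.05 with hairpin 2) in the authors' deposited tables. The gene that rose with hairpin 1 was XRN1, a cytoplasmic exonuclease (0.32), and the one that rose with hairpin 2 was TENT4B, which adds short tails to RNAs for trimming or decay (0.62), both in the authors' deposited tables. Of 9 Cajal body genes, 5 fell with hairpin 1 and 8 with hairpin 2. WRAP53, which carries scaRNAs to Cajal bodies, fell (log2 fold change -0.53 with hairpin 1 and -1.57 with hairpin 2) in the authors' deposited tables. COIL, the scaffold coilin, was at 0.05 with hairpin 1 (adjusted p = 0.823) and fell with hairpin 2 (-0.67) in the authors' deposited tables. SMN1, which has a near-identical copy, SMN2, is uncertain. It is among the 5 that fell with hairpin 1 (-2.02 at a mean of 37.1 reads) and was not called with hairpin 2 (0.34), in the authors' deposited tables. Of the listed non-coding snoRNA hosts, 10 of 15 tested fell with hairpin 1 and 13 of 16 with hairpin 2. SNHG3, the host of SNORA73B, fell (log2 fold change -0.52 with hairpin 1 and -0.94 with hairpin 2) in the authors' deposited tables. Over all tested genes, 16.0% were called lower with hairpin 1 and 22.1% with hairpin 2. Among tested genes with a mean count above 100, which most of the list genes had, the shares were 22.1% with hairpin 1 and 37.4% with hairpin 2. These lists are described by their counts alone.

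Other structured small RNAs gave 0 calls by DESeq2 among 8 tested with hairpin 1, where 2 had an unadjusted p under 0.05, and 3 higher among 11 tested with hairpin 2. Over all tested genes 17.7% were called higher with hairpin 1 and 19.4% with hairpin 2, at the adjusted threshold only. RN7SL1, the RNA of the signal recognition particle, rose with hairpin 2, at 0.95 in the authors' deposited table (SE 0.23, adjusted p = 0.000158), and had 0.19 with hairpin 1 (SE 0.28). RNU5A-1 and RNU4ATAC, small nuclear RNAs of the spliceosome, rose with hairpin 2, at 1.32 and 2.19 in the authors' deposited table. With hairpin 1 they had 0.45 and 2.12 in the authors' deposited table and were not called. Their part in the values of the scaRNAs was not tested.

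In U937 cells, few of the 85 genes could be compared. The authors' deposited tables list 56 of them at 6 h and 58 at 24 h, and DESeq2 tested 2 and 8. None was called at either time, beside 23.2% of all tested genes at 6 h and 38.8% at 24 h, and none had an unadjusted p under 0.05. The highest mean count was 26.7 reads at 6 h and 24.4 at 24 h, both of SNORA71B. SNORD17 had log2 fold changes of -0.80 at 6 h (SE 0.64) and -0.87 at 24 h (SE 0.53) in the authors' deposited tables, against NT in both. The RPS12 snoRNA SNORA33 was tested at 24 h only, where the authors' deposited table gives -1.56 (SE 1.04, adjusted p = 0.244). SNORD11 was listed at 5.60 reads at 6 h and 3.24 at 24 h and was not tested. IGF2BP3 transcripts had -0.27 at 6 h and 0.15 at 24 h, neither of them called (0.168 and 0.254 as adjusted p), in the authors' deposited tables; the degron acts on the protein, which these libraries do not measure. Genes of the particle proteins were tested in U937 cells, where calls in the authors' deposited tables went both ways. Of the 4 C/D core proteins, 1 rose and 1 fell at 6 h, and 0 rose and 3 fell at 24 h. NOP58 rose at 6 h (0.39, adjusted p = 1.96e-09) and had -0.01 at 24 h, while FBL fell at both times (-0.28 and -0.23), in the authors' deposited tables. Of the 4 H/ACA core proteins, 1 rose and 1 fell at 6 h, and 0 rose and 1 fell at 24 h. DKC1 rose at 6 h (0.35) and had 0.05 at 24 h, and NHP2 fell at both times (-0.36 and -0.34), in the authors' deposited tables. Of the 2 H/ACA assembly factors 1 rose at 6 h, SHQ1, and none was called at 24 h. Of 10 factors of C/D and R2TP assembly, 1 rose and 4 fell at 6 h, and 4 rose and 4 fell at 24 h. Of 15 genes of processing and trafficking, 7 rose and 1 fell at 6 h, and 7 rose and 5 fell at 24 h. Of the Cajal body genes, 2 rose and 1 fell among 8 tested at 6 h, and 4 rose and 2 fell among 9 at 24 h. Of 15 tested non-coding hosts, 0 rose and 1 fell at 6 h, and 3 rose and 4 fell at 24 h. The 23.2% and 38.8% of all tested genes called at 6 h and 24 h pool both directions. Shares by direction, or among genes with many reads, were not worked out, so these list counts are a description only. For the snoRNAs themselves, at these low read counts a change of the kind seen in MOLM13 cells was not detectable for most of the genes.

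The minimum of 10 reads cut through a continuous range. SNORA30, just inside it, had mean counts of 10.4 and 11.5 reads in the hairpin 1 and hairpin 2 tables, and SCARNA18B had 13.4 and 10.4. Just outside it, SNORD67 had 12.5 and 9.67 reads and SNORD58 had 10.0 and 9.94. In all, 162 genes with these symbols were listed in either MOLM13 table, 77 of which did not reach the minimum in both. The 70 of them listed in both tables had median log2 fold changes of -0.55 with hairpin 1 and -0.97 with hairpin 2.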

How the data were processed

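RNA sequencing tables of MOLM13 and U937 cells were used as deposited. The submitters' processing notes name cutadapt 4.1, HISAT2 2.1.1, HTSeq 2.0.2, DESeq2 and the build hg38. Strand setting, annotation release and any shrinkage are not given in the sources used here. Per the file headers, the signal the authors deposited is a base mean, read here as a normalised count averaged over all 4 libraries compared. The authors deposited fold changes as log2 values, and each deposited p-value is an adjusted one. Replicates may be technical, since separate cultures are not stated.

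Calls used an adjusted p under 0.05. Group levels were worked out from mean and fold change. Reversing the Benjamini-Hochberg adjustment gave unadjusted p-values, and a Wald test was assumed to obtain standard errors and 95% intervals. The difference between hairpins was tested against the combined error of both (two-sided normal, adjusted over all genes); shared controls make that error too large. Genes of like count had a mean within 1.25-fold. Of the 85 genes, 78 matched GENCODE release 29 by ID and version, 6 by ID and 1 not; 11 had a copy of at least 95% identity, whose reads are uncertain, and 3 overlapped an exon of another gene. Scripts used Python 3.11.15 and pandas 2.3.3 and were tested on simulated data. The genes, lists and tests were chosen with earlier results of these data known. Named were the highest and lowest called and most abundant genes of each class, every Cajal body RNA, genes that differed between hairpins or lay at the minimum, hosts and list members changed with both hairpins, of which not all are reported. SNORD100, SNORD101, SNORD94, SNORD88A, SNORD19, SNORD70, SNORA71B, small nuclear RNAs and list members changed with 1 hairpin were named after their values were seen.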

Additional observations from a re-analysis of the deposited data

Results flagged for a closer look

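Differences between the hairpins passed the test for 4 of the 85 genes. Over all 16267 genes compared, 9.09% were higher and 18.2% lower with hairpin 2. SCARNA5 (0.83), SCARNA6 (0.65) and SNORA23 (1.05) were higher with hairpin 2 than with hairpin 1, in log2 fold change against shNS. SNORD14E was lower with hairpin 2 (-2.34), and its values lay on either side of 0 with the 2 hairpins. Taking 0.5 of each squared error as shared with the control kept these 4 and added SNORA12 (0.48) as higher and SNORD83A (-1.07) and SNORA65 (-1.36) as lower. No cause was tested.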

How the results depend on the processing

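Of 48 alternatives to 14 results, 39 left a count within 1.5 times, or a class median within the median implied error of its genes. That error was larger than the size of every class median except that of C/D with hairpin 2, so most medians could hardly fail this rule. At a stricter threshold a count of 0 could not change. The 39 is therefore not a measure of robustness. The shares of all tested genes called under the alternative settings were not worked out. Whether the counts below drop more than those of other genes is therefore not known. At an adjusted p under 0.01, 1 gene was lower with hairpin 1, 2 were higher and 4 lower with hairpin 2, and 2 differed as higher and 0 as lower with hairpin 2. Centred on the median gene, which had shifted by -0.01 with hairpin 1 and 0.02 with hairpin 2, 3 of the 4 higher calls with hairpin 2 were left, SNORA12 no longer among them. At least 2-fold change left 1 lower gene with hairpin 1 and 0 higher genes with hairpin 2. A mean count of 50 in both tables left 27 genes, of which 3 were lower with hairpin 2, and moved the C/D median with hairpin 2 to -0.16. It also put the H/ACA and Cajal body medians with hairpin 2 above 0, at 0.01 and 0.31, where they had been -0.12 and -0.16. The smaller number of genes is part of that alternative. Its mean counts include the hairpin libraries, so a gene that falls is also more likely to be left out. With 0.5 of each squared error taken as shared control error, 3 genes differed as lower with hairpin 2. Leaving out the genes with copies or overlaps left 71 genes and 3 higher calls with hairpin 2, without SNORD3B-1. No paired analysis was possible because the tables hold no values per library; for the same reason no replicate could be left out. Implied errors of 0.59 (hairpin 1) and 0.60 (hairpin 2) in the median limit what could be detected for single genes.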
